A study of Mus musculus with 8 samples.

Results

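The genes described here are the interferon-inducible GTPases of the guanylate-binding protein (GBP) and immunity-related GTPase (IRG) families, measured in the ileum of 8 obese, diabetic mice. Members were chosen by gene symbol from a list of 10 genes, and 8 of the 10 had a probe set: Gbp2, Gbp3, Gbp4, Gbp7, Irgm1, Irgm2, Igtp and Iigp1. Gbp5 and Gbp6 were not analysed here. Each of the 8 genes had 1 probe set among the 22206 on the array.

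All mice were male KKAy animals, a strain with the yellow agouti allele that becomes obese and diabetic. The labels give an age of 14 weeks for the housed animals and high-fat feeding, with 45% of dietary energy as fat, for every mouse. After 4 weeks on this diet, 4 mice were gavaged daily with voglibose at 1 mg/kg and 4 with water, for 8 weeks in both groups. No lean or untreated strain was among the groups used here, and 1 array was made from the ileum of each mouse. Voglibose blocks the alpha-glucosidases of the brush border. Values are log2 signals, and each difference is voglibose minus water, so that a difference of -1 stands for a signal lower by a factor of 2.

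GBPs and IRGs are large GTPases that interferon gamma, through the receptor-associated JAK kinases and the factor IRF1, induces in epithelial cells and macrophages. They assemble on vacuoles that hold intracellular bacteria or parasites and help to break them open or to mark them for autophagy. Irgm1, Irgm2 and Igtp (also called Irgm3) form the regulatory branch of the IRGs, which guards the cell's own membranes, and Iigp1 (Irga6) is an effector that coats the vacuole. GBPs also give cytosolic sensors of bacterial products access to their ligands.

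The tissue label was checked before the comparison. Absorptive enterocyte markers were bright in every mouse, with list means of 17.33 to 17.43 in water and 17.42 to 17.57 in voglibose mice. Fabp6, the ileal bile acid binding protein, ran from 3.54 to 17.50 between mice. In water mouse 4 (4.01) and voglibose mouse 2 (3.54) it lay below the lower quartile of the arrays, which was 4.05 to 4.18. The piece of intestine thus differed in regional markers between mice of 1 group, and the results on the 8 genes and on each gene list are given with and without these 2 mice. Absorptive enterocyte markers had a higher mean in voglibose mice in 8 of 9 with all mice and in 9 of 9 without these 2. Of 7 distal ileum genes 5 had a lower mean in voglibose mice in either case, with medians of -0.46 with all mice and -0.41 without these 2. Array medians lay between 5.89 and 5.94, and the median SE of a difference over all probe sets was 0.18.

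The upstream sequence of these genes is shown first, because each of the genes whose promoter was searched held the letters of an interferon response element. RefSeq promoters (GRCm38.p6) of 7 of the 10 listed genes (Gbp2, Gbp3, Gbp5, Gbp7, Irgm1, Irgm2 and Igtp) were searched. The search for members did not take in every chromosome, and Gbp4, Gbp6 and Iigp1 were not searched. In each promoter the 250 bases before the annotated start were read on both strands. One motif was GAAA repeated after any 2 bases, the core of the interferon-stimulated response element (ISRE) that IRF1 binds, and the other was TTCNNNGAA, the gamma-activated site (GAS). The genes below are those whose values the results turn on, written 5′ to 3′ in the direction of the gene, with matches to either motif in capitals. They lie at chr3:142620413-142620662 on the plus strand (Gbp2), chr3:142559794-142560043 on the plus strand (Gbp3), chr11:48871421-48871670 on the minus strand (Irgm1), chr11:58199306-58199555 on the plus strand (Igtp) and chr11:58214727-58214976 on the plus strand (Irgm2).
Gbp2: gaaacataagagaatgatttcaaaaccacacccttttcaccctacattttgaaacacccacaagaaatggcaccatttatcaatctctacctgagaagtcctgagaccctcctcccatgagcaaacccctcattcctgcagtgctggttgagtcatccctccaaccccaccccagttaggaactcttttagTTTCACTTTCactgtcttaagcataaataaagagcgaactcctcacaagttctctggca
Gbp3: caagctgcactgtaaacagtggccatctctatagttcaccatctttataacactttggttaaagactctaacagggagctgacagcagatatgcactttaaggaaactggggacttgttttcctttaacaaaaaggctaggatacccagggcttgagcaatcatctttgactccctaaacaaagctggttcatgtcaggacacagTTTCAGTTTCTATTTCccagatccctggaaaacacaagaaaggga
Irgm1: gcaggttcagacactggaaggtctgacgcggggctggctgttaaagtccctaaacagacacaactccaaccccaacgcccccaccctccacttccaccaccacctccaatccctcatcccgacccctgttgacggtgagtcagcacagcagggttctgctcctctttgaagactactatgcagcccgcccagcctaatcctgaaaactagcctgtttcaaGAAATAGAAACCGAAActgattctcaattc
Igtp: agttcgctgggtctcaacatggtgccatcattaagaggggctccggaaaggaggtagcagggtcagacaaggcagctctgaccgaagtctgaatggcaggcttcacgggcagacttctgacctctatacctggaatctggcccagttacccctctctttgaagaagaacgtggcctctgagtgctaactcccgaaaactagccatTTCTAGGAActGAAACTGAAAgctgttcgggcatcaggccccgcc
Irgm2: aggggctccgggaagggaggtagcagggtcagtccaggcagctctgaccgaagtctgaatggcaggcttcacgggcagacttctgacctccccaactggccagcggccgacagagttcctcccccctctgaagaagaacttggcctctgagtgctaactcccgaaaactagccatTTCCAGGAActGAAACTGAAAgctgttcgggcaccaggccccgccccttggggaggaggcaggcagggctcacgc

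The ISRE core was present in 7 of the 7 listed genes searched, and in 3.46% of all 27025 genes with a RefSeq promoter. Gbp2 held 1 match, TTTCACTTTC, at bases -59 to -50 from the start. Gbp3 has a second RefSeq promoter, at chr3:142560106-142560355, which held neither motif. The promoter of Gbp3 shown and that of Irgm1 each held 2 matches that share bases, at -45 to -30 for Gbp3 and at -30 to -15 for Irgm1. The GAS letters were found in 4 of the 7 genes, Gbp5, Gbp7, Igtp and Irgm2, against 8.13% of all genes. Igtp and Irgm2 are neighbours on the chromosome with no protein-coding gene between them, and each held the ISRE match GAAACTGAAA with a GAS match a few bases before it. In a global alignment of their upstream sequences 197 bases were identical and 17 differed, beside 72 gapped positions. These matches describe letters in a window. They do not show binding.

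All 8 measured genes had a lower mean signal in voglibose than in water mice, where 50.9% of all probe sets did. The differences ran from -0.31 for Gbp4 to -1.22 for Igtp, with a median of -0.73 against -0.005 over all probe sets. None passed limma's test after Benjamini-Hochberg adjustment across the array (adjusted p from 0.652 to 0.852), and 0% of all probe sets did. At an unadjusted p under 0.05 stood 3 of the 8 genes, Gbp2, Irgm1 and Gbp3, each lower in voglibose mice, where 7.52% of all probe sets met that limit and 4.44% met it with a lower signal in voglibose mice. The groups did not overlap in 1 of the 8, Gbp2, against 4.35% of all probe sets (2.53% with the lower signal in voglibose mice). With the replicate number as a block, although the labels give no pairing of mice, 3 of 8 genes had an unadjusted p under 0.05, against 6.89% of the array.

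**Figure D1:**
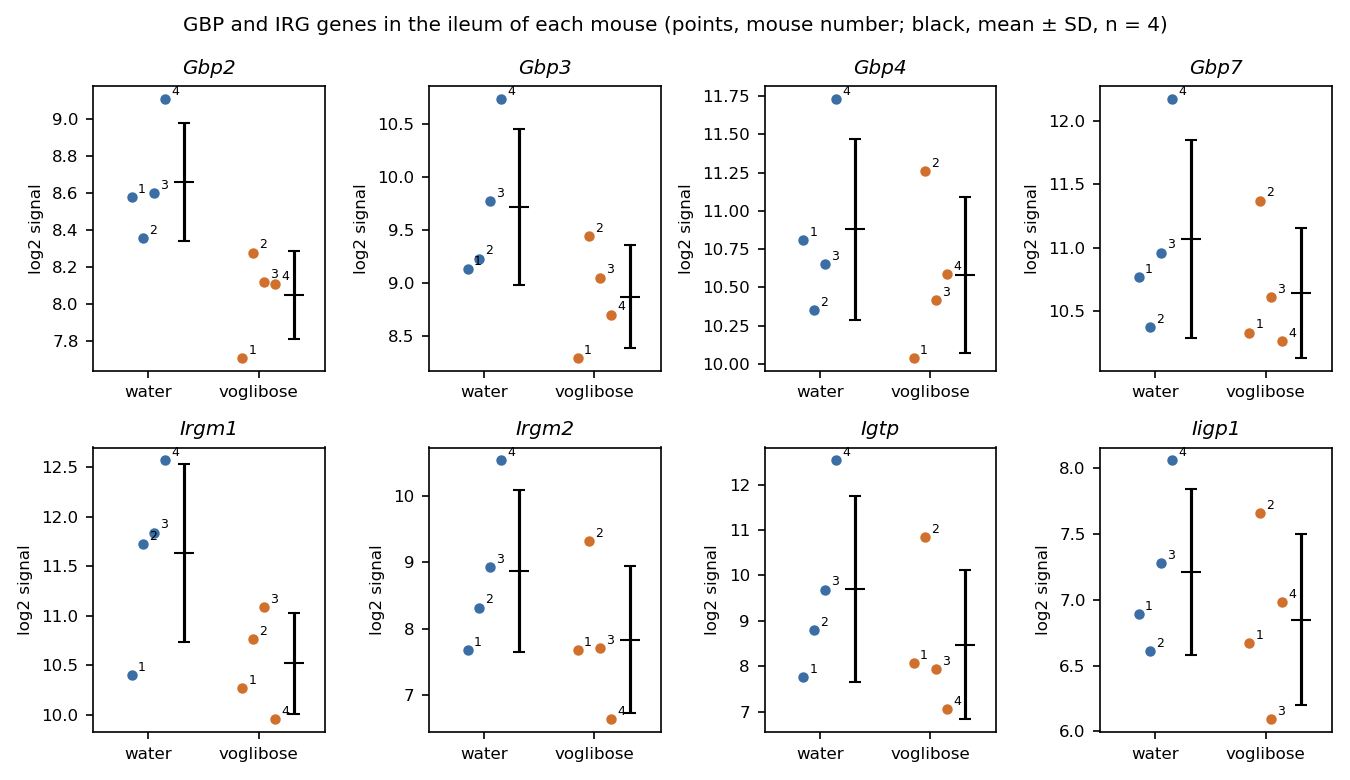
Log2 signal (vertical axis) of the 8 GBP and IRG genes in each mouse, with water mice in blue and voglibose mice in orange, points labelled by mouse number, and black bars for the mean ± SD (n = 4). Water mouse 4 is the highest point in all 8 panels, and the groups are apart only for Gbp2.

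Gbp2, a GBP that is carried to vacuoles by a lipid anchor, had 8.58, 8.36, 8.60 and 9.11 in water mice 1 to 4 and 7.71, 8.28, 8.12 and 8.11 in voglibose mice 1 to 4. Every voglibose mouse lay below every water mouse, although the gap between the lowest water mouse and the highest voglibose mouse was narrow. The means were 8.66 ± 0.32 and 8.05 ± 0.24 (SD, n = 4), a difference of -0.61 ± 0.19 (SE) with a 95% interval from -1.03 to -0.19. Water signal was thus 1.52 times the voglibose signal (limma adjusted p = 0.652, unadjusted p = 0.00847), and Gbp2 ranked 272 of 22206 probe sets by p. Of the 17 other fits made, with mice left out or other scaling and variance models, 17 gave Gbp2 an unadjusted p under 0.05, from 0.00186 to 0.029, and none an adjusted p under 0.05. The fit with the mean over all probe sets of a gene repeats the main fit for Gbp2.

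Gbp3, in the same GBP cluster with 1 protein-coding gene between them, had 9.13, 9.23, 9.77 and 10.74 in the water group and 8.29, 9.44, 9.05 and 8.70 in voglibose mice. Only voglibose mouse 2 reached into the water range, and the other 3 voglibose mice were below all water mice. The difference was -0.85 ± 0.35 (SE; limma adjusted p = 0.658), and -0.51 without water mouse 4. Gbp7, which adjoins Gbp3, had 10.77, 10.37, 10.96 and 12.17 in the water group and 10.33, 11.37, 10.61 and 10.26 in voglibose mice. Here the groups overlapped widely, with voglibose mouse 2 second of all 8 mice. Gbp7 differed by -0.42 ± 0.36, by -0.06 without water mouse 4, by -0.67 without voglibose mouse 2, by -0.66 without water mouse 2 and by -0.30 without both water mouse 4 and voglibose mouse 2.

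Gbp4, a member of the other GBP cluster, had 10.81, 10.35, 10.65 and 11.73 in the water group and 10.04, 11.26, 10.42 and 10.59 in voglibose mice. Its groups overlapped, and the lowest mouse was voglibose mouse 1. The difference was -0.31 with a 95% interval from -0.99 to 0.38, and it was -0.03 without water mouse 4, -0.13 without voglibose mouse 1, -0.49 without water mouse 2 and -0.54 with voglibose mouse 2 left out. This interval holds a signal in voglibose mice both lower and higher than in water mice.

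Among the regulatory IRGs, Irgm1 had 10.40, 11.72, 11.84 and 12.57 in the water group and 10.27, 10.76, 11.09 and 9.95 in voglibose mice. Water mice 2, 3 and 4 stood above all voglibose mice, and water mouse 1 lay among them. The means were 11.63 ± 0.90 and 10.52 ± 0.51 (SD, n = 4), a difference of -1.11 ± 0.40 (SE) with a 95% interval from -1.99 to -0.24 (limma adjusted p = 0.652). Without water mouse 1 the difference was -1.53 and the groups no longer overlapped, and without water mouse 4 it was -0.80.

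Igtp, which with Irgm1 and Irgm2 keeps effector IRGs inactive on the cell's own membranes, had 7.76, 8.80, 9.69 and 12.53 in the water group and 8.07, 10.84, 7.94 and 7.05 in voglibose mice. Its range over the 8 mice, 5.48 on the log2 scale or 44.6-fold, was the widest of the 8 genes, and water mouse 4 and voglibose mouse 2 were the highest mice. The difference of -1.22 had a 95% interval from -3.36 to 0.92, and the estimate was -0.28 without water mouse 4, -0.74 without voglibose mouse 4, -1.86 without water mouse 1 and -2.01 without voglibose mouse 2. Irgm2 had 7.68, 8.32, 8.93 and 10.53 in the water group and 7.68, 9.32, 7.71 and 6.64 in voglibose mice, the same 2 mice being highest. It differed by -1.03 ± 0.62, by -0.47 without water mouse 4 and by -0.63 without voglibose mouse 4. Igtp and Irgm2 are close relatives, and whether their probes share signal was not tested, since probe sequences were not used here.

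Iigp1, the effector IRG, had 6.89, 6.61, 7.28 and 8.06 in the water group and 6.67, 7.66, 6.09 and 6.98 in voglibose mice. The groups overlapped, and voglibose mouse 3 was lowest. Iigp1 differed by -0.36 ± 0.36 (SE), by -0.08 without water mouse 4, -0.11 without voglibose mouse 3, -0.63 without voglibose mouse 2 and -0.56 without water mouse 2.

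All 8 genes shared much of their order of mice. Water mouse 4 was highest in 8 of 8 genes, and second came voglibose mouse 2 in 5 of them (Gbp4, Gbp7, Irgm2, Igtp and Iigp1) and water mouse 3 in the other 3 (Gbp2, Gbp3 and Irgm1). The lowest mouse was voglibose mouse 4 in 4 genes, voglibose mouse 1 in 3 and voglibose mouse 3 in 1. The 3 genes with voglibose mouse 2 below water mouse 3 are the 3 with an unadjusted p under 0.05. As a description over the 8 mice, with group and mouse shared by all genes, Pearson correlations of the 28 pairs ran from 0.43 (Irgm1 with Iigp1) to 0.99 (Igtp with Irgm2), with a median of 0.82, and the median was 0.80 for deviations from the group means. The mean of the 8 genes, each centred on its mean over all mice, was -0.35, -0.13, 0.37 and 1.58 in water mice 1 to 4 and -0.72, 0.52, -0.47 and -0.81 in voglibose mice 1 to 4. The SD between mice of a group came to 0.86 among water and 0.61 among voglibose mice, and the difference of the means was -0.74. Leaving out water mouse 4 gave -0.33, and leaving out voglibose mouse 2 gave -1.03. In all 8 genes the SE of the difference, 0.19 to 0.97, was above the median SE of the array.

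Both mice with low Fabp6 had high GBP and IRG signal, 1 in each group. The mean of 7 distal ileum genes was -0.47, 3.18, 1.20 and -2.17 in the water group and -0.68, -2.24, 0.60 and 0.57 in voglibose mice, lowest in the same 2 mice. Without both mice the 8 genes still all had a lower mean in voglibose mice (50.6% of all probe sets did), with differences from -0.25 (Gbp4) to -1.06 (Igtp). Gbp2, Gbp3, Irgm2 and Igtp then had an unadjusted p under 0.05, against 5.15% of all probe sets (2.78% with the lower signal in voglibose mice), and Irgm1 had 0.0531 (limma, adjusted p from 0.919 to 0.925 in the 8 genes). The groups then did not overlap in 2 genes, Gbp2 and Gbp3, against 10.5% of all probe sets (5.3% with the lower signal in voglibose mice). The 2 mice had the highest GTPase mean of their groups (1.58 and 0.52), so a smaller spread within groups follows from leaving them out. For Igtp the SE went from 0.97 to 0.44 while the difference shrank from -1.22 to -1.06. The lower unadjusted p-values are thus no stronger evidence. With the distal list mean of each mouse as a covariate, 8 of 8 genes had an unadjusted p under 0.05, against 8.96% of all probe sets (5.34% lower in voglibose mice, and 51.7% lower at any p). The differences then ran from -0.51 (Gbp4) to -1.81 (Igtp). The adjusted p of the 8 genes then ran from 0.494 to 0.553 (limma), and the array gave 0 probe sets with an adjusted p under 0.05. This covariate was chosen with earlier results known, and the list mean itself was 0.87 lower on the log2 scale in voglibose than in water mice, with overlapping groups.

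**Figure D2:**
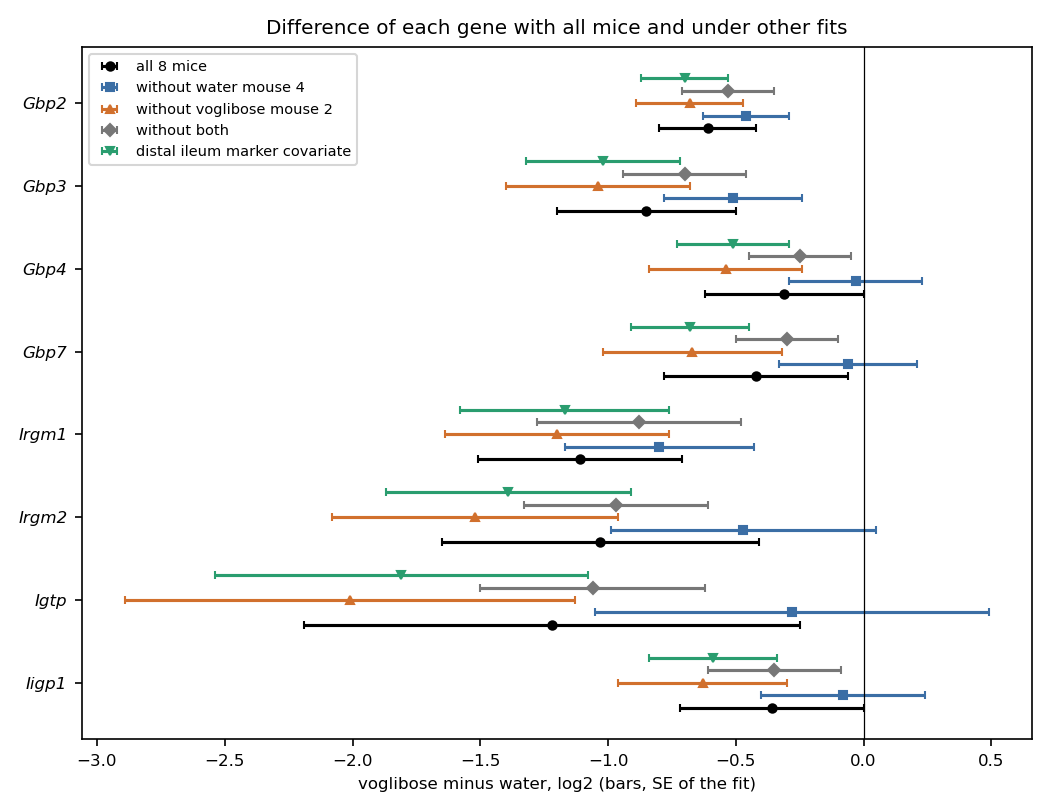
Difference between voglibose and water mice (horizontal axis, log2) for each GBP and IRG gene, with all 8 mice and under 4 other fits; bars are the SE of each fit. All points lie below 0; those of Gbp4, Gbp7 and Iigp1 come close to it without water mouse 4 (-0.03, -0.06 and -0.08).

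The other measured genes of both families did not all share the direction. Of 21 listed relatives 12 had a probe set, 6 with a lower and 6 with a higher mean in voglibose mice, with a median difference of -0.04. Of these 0 had an unadjusted p under 0.05 (limma), against 7.52% of the array. The even split counts differences of unlike size, from -1.50 to 0.30. Among the higher ones, Irgc1 was near the floor (means of 2.99 in water and 3.13 in voglibose mice), and 9930111J21Rik1 and Gvin1 differed by 0.03 and 0.04. These 3 were named after their values were seen. With water mouse 4 and voglibose mouse 2 left out the split was again 6 and 6. An unadjusted p under 0.05 with the lower signal in voglibose mice was then found in 2 of 12, against 2.78% of the array. Gm12250, which encodes the effector Irgb10, had 8.67, 8.66, 10.23 and 13.18 in the water group and 8.03, 11.06, 8.49 and 7.17 in voglibose mice. Its order of mice was that of Igtp at the top, and it differed by -1.50 ± 1.00 (SE). The difference was -0.50 without water mouse 4, -2.29 without voglibose mouse 2 and -0.99 without voglibose mouse 4. Gm5431 and the IRG Tgtp2 differed by -1.21 ± 0.61 and -0.72 ± 0.48, Gm4951 by -0.31 ± 0.18, and Irgq, an IRG relative, by 0.30 ± 0.17. Without water mouse 4 the differences were -0.62 for Gm5431, -0.19 for Tgtp2 and -0.20 for Gm4951, and Gm4951 was at -0.17 without voglibose mouse 4. Irgq was at 0.14 with water mouse 4 and voglibose mouse 2 left out. Of the remaining GBPs, Gbp8 differed by 0.19 ± 0.28 and Gbp9 by -0.36 ± 0.36, both named after their values were seen.

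At the top of the pathway, Ifng had the higher mean in voglibose mice and both chains of its receptor a slightly lower one, and none of these had an unadjusted p under 0.05 (limma). Ifng itself was dim, at 4.20, 4.38, 3.76 and 4.11 in the water group and 4.43, 4.59, 3.99 and 4.81 in voglibose mice. These values sit close to the lower quartile of each array. Ifng differed by 0.34 with a 95% interval from -0.10 to 0.78, and by 0.22 without voglibose mouse 4. The receptor chains Ifngr1 and Ifngr2 were bright and even between mice, with differences of -0.20 ± 0.15 and -0.06 ± 0.14 (SE). Ifngr1 was at -0.12 without voglibose mouse 1, and Ifngr2 ranged from -0.13 to 0.01 as single mice were left out. Ifnlr1, a chain of the lambda interferon receptor, differed by 0.48 ± 0.27, and by 0.74 without water mouse 4, and Ifnl2, a lambda interferon, by 0.17 ± 0.15, and by 0.27 without voglibose mouse 3. Ifnl3, another lambda interferon, named after its values were seen, differed by 0.11 ± 0.12. Its groups did not overlap, with the higher signal in voglibose mice. Of 13 measured ligands and receptors 7 had a lower and 6 a higher mean in voglibose mice, with a median of -0.01. An unadjusted p under 0.05 (limma) was found in 0 of them, against 7.52% of the array. Without water mouse 4 and voglibose mouse 2, 4 were lower and 9 higher, with a median of 0.12.

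Among 13 measured genes of JAK, STAT and IRF signalling 6 had a lower and 7 a higher mean in voglibose mice, with a median of 0.06. The kinase gene Jak1 differed by 0.32 ± 0.15, and Irf8, a factor of myeloid cells, by 0.22 ± 0.14. The groups did not overlap for Irf8, with 7.53 to 7.88 in water and 7.89 to 7.97 in voglibose mice. Irf1, the factor that drives GBP genes, had 13.53, 13.32, 13.33 and 14.77 in the water group and 12.95, 14.27, 13.41 and 13.49 in voglibose mice. As in the GTPase genes, water mouse 4 and voglibose mouse 2 were highest. Irf1 differed by -0.21 ± 0.35, by 0.14 without water mouse 4, by -0.01 without voglibose mouse 1 and by -0.45 without voglibose mouse 2. Stat2, of the type I interferon complex, differed by -0.79 ± 0.44, by -0.44 without voglibose mouse 4 and by -0.50 without water mouse 4. Usp18, a feedback inhibitor of the type I receptor, differed by -2.39 ± 0.92 (limma adjusted p = 0.658). It was the only gene of the 13 with an unadjusted p under 0.05 (limma). That is 7.69% of the list, against 7.52% of the array (4.44% with the lower signal in voglibose mice), so the list as a whole stood near the array share. Usp18 was at -1.59 without voglibose mouse 4. Without water mouse 4 and voglibose mouse 2, 8 genes of this list were lower and 5 higher, with a median of -0.03.

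Other genes that interferon gamma induces had a lower mean in voglibose mice in 18 of 20 measured, with a median of -0.27, and 2 of 20 had an unadjusted p under 0.05 in that direction, against 4.44% of the array. Leaving out water mouse 4, 12 of 20 were lower, with a median of -0.06. Without that mouse and voglibose mouse 2, 17 of 20 were lower, with a median of -0.23. Cxcl9, a chemokine for activated T cells, had 9.47, 10.22, 9.97 and 11.92 in the water group and 8.52, 9.43, 7.27 and 8.83 in voglibose mice. The groups did not overlap, and the difference was -1.88 ± 0.53 (SE), a 3.69-fold higher signal in water mice (limma adjusted p = 0.652). Cxcl10, which acts on the same receptor, differed by -0.89 ± 0.40, Ido1, an enzyme of tryptophan breakdown, by -1.03 ± 0.48 and Casp4, the sensor of cytosolic lipopolysaccharide, by -0.39 ± 0.24. Cxcl10 was at -0.40 and Ido1 at -0.59 without water mouse 4, and Casp4 was at -0.18 without voglibose mouse 1 and -0.23 without water mouse 2. Class II genes H2-Aa and H2-Ab1, named after their values were seen, differed by -0.04 ± 0.24 and 0.17 ± 0.22, and the immunoproteasome gene Psmb9 by -0.26 ± 0.50. Psmb9 was highest in water mouse 4 (12.24) and voglibose mouse 2 (11.94), like Igtp.

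Genes that are induced mainly by type I and lambda interferons had a lower mean in voglibose mice in 16 of 17 measured, with a median of -1.04, and 7 of 17 had an unadjusted p under 0.05 in that direction, against 4.44% of the array. This count of 7 depended on single mice. It was 0 without voglibose mouse 4 and without water mouse 3, 1 without water mouse 4 and 2 without voglibose mouse 1, and it was 14 without water mouse 1, 10 without water mouse 2 and 12 without voglibose mouse 2. With both water mouse 4 and voglibose mouse 2 left out it was 4, against 2.78% of the array in that direction, with 16 of 17 lower and a median of -0.88. The share of the array without single mice is not given here, so a shift of the whole array is not told apart. Ifit1 and Ifit3, which bind viral RNA or its complexes, differed by -2.08 ± 0.80 and -2.08 ± 0.75, Rsad2 by -1.32 ± 0.53 and Oasl1 by -1.30 ± 0.46. Ifit1 was at -1.32 without voglibose mouse 4, and Rsad2 at -0.82 without water mouse 4. The list mean was lowest in voglibose mouse 4 (-1.69), and voglibose mouse 2 stood at 0.26, below water mice 3 and 4 (1.03 and 1.71).

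**Figure D3:**
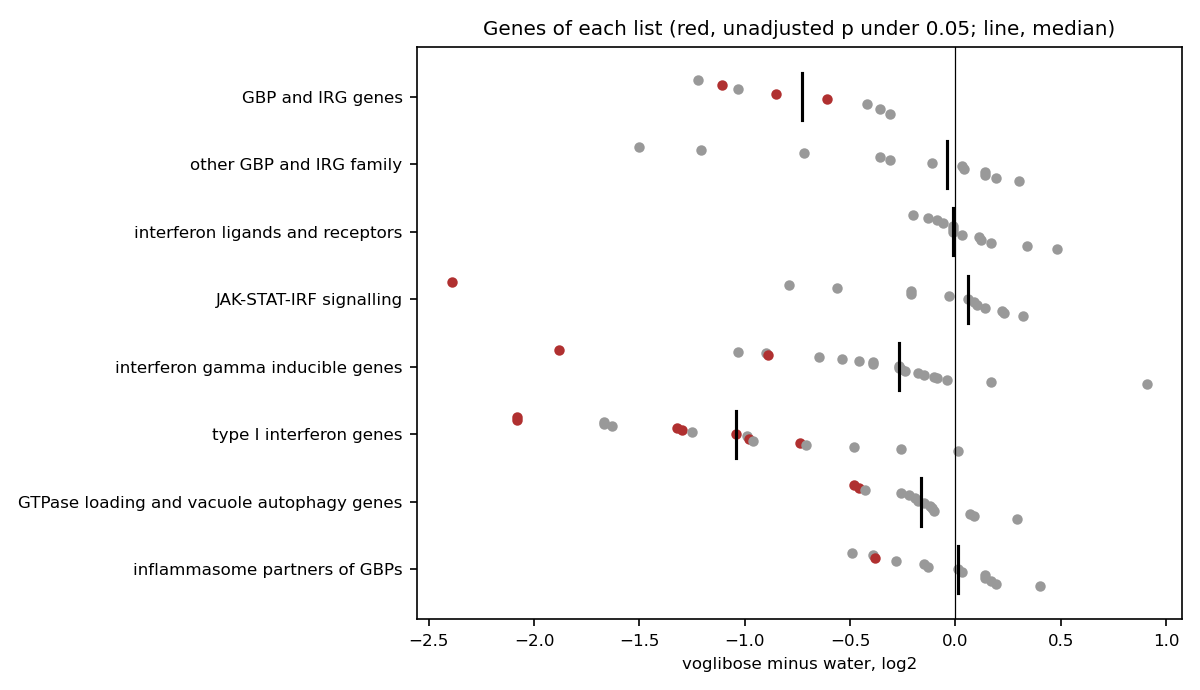
Difference between voglibose and water mice (horizontal axis, log2) of each measured gene in the 8 lists; red points have an unadjusted p under 0.05 and black lines are medians. The GBP and IRG genes (median -0.73) and the type I interferon genes (median -1.04) lie to the left of 0, and ligands and receptors (median -0.01) around it.

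Autophagy and inflammasome genes that work with these GTPases were examined next. Genes of the autophagy machinery, whose conjugation branch places IRGs and GBPs on vacuoles, had a lower mean in voglibose mice in 11 of 14, with a median of -0.16, and 2 of 14 had an unadjusted p under 0.05 in that direction, against 4.44% of the array. That count was 1 without water mouse 4, without voglibose mouse 1 or without voglibose mouse 2, and 4 without water mouse 2. It was 0 without both water mouse 4 and voglibose mouse 2, against 2.78% of the array, with 11 of 14 lower and a median of -0.09. For the fits without single mice the share of the array is not given here. Atg16l1 and Atg5, parts of the complex that attaches LC3 to membranes, differed by -0.48 ± 0.17 and -0.46 ± 0.18 (SE), and Atg12 of the same complex by -0.43 ± 0.20, and by -0.28 without water mouse 4. The groups did not overlap for Atg16l1, at 7.80, 8.10, 7.85 and 8.31 in the water group and 7.32, 7.38, 7.72 and 7.73 in voglibose mice (limma adjusted p = 0.652). Ulk1, the kinase that starts autophagy, was dim and differed by 0.29 ± 0.20, and by 0.18 without water mouse 1 or water mouse 4. Of 13 inflammasome genes 6 had a lower and 7 a higher mean, with a median of 0.01. Casp1, the protease that cleaves gasdermin D, differed by -0.38 ± 0.15 with groups that did not overlap, its adaptor Pycard by -0.28 ± 0.17 and Il1b by -0.49 ± 0.24. Pycard was at -0.14 without voglibose mouse 1 and Il1b at -0.77 without voglibose mouse 3. With water mouse 4 and voglibose mouse 2 left out, 7 of the 13 were lower, with a median of -0.02.

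Markers of the cells that could make or answer interferon gamma moved in part with these genes. Of 9 measured T cell and intraepithelial lymphocyte markers 8 had a higher mean in voglibose mice, with a list level of 6.20 to 8.33 in water and 7.04 to 8.29 in voglibose mice. The coreceptor genes Cd8a and Cd8b1 differed by 0.49 ± 0.61 and 0.34 ± 0.33 (SE). As single mice were left out Cd8a ranged from -0.24 to 0.95 and Cd8b1 from 0.01 to 0.54. Both were lowest without water mouse 2, and 8 of the 9 markers were then lower. Without voglibose mouse 2, 7 of 9 were lower, and without that mouse and water mouse 4, 2 of 9 were lower. The list mean was highest in water mouse 4 (0.77) and voglibose mouse 2 (0.73), and Gzma, named after its values were seen, had 12.35 and 11.62 there and 7.51 to 10.55 in the other mice. Macrophage and dendritic cell markers had a lower mean in voglibose mice in 8 of 10, with a list level of 8.68 to 8.95 in water and 8.45 to 8.94 in voglibose mice. Mrc1 and Lyz2 differed by -0.42 ± 0.17 and -0.28 ± 0.15. Lyz2 was far brighter, with means of 17.01 in water and 16.72 in voglibose mice, against 10.74 and 10.32 for Mrc1. Whether the Lyz2 signal comes from macrophages was not tested. NK cell and innate lymphoid markers were lower in 4 of 8, B cell and plasma cell markers in 0 of 6 and smooth muscle and stroma markers in 3 of 6. Without water mouse 4 and voglibose mouse 2 these counts were 2 of 8, 4 of 6 and 6 of 6, and 9 of 10 macrophage and dendritic cell markers were lower. The smooth muscle list, with levels of 10.05 to 12.34 in water and 10.81 to 11.74 in voglibose mice, was lowest in water mouse 4 (-1.08) and highest in water mouse 2 (1.21). No marker reads 0 on this scale, whose lowest value was 2.09. In these bulk samples fewer cells of a type and less RNA per cell cannot be told apart, and the part of cell composition in the GTPase differences was not tested.

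**Figure D4:**
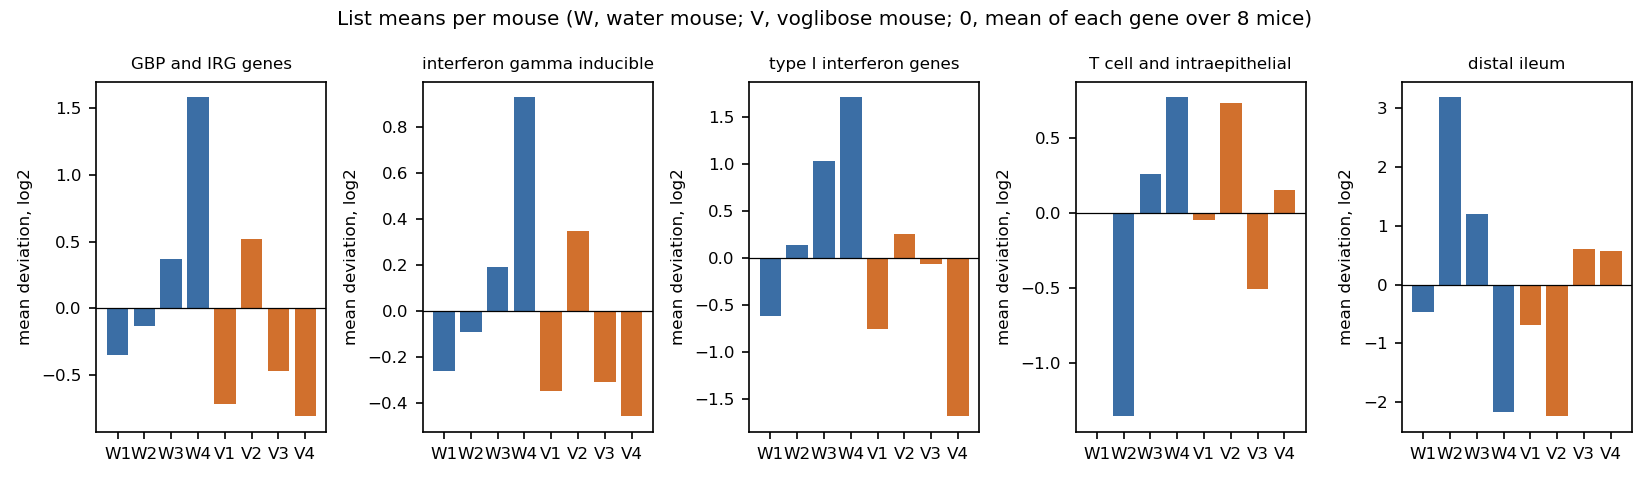
Mean deviation of the genes of 5 lists in each mouse (vertical axis, log2; 0 is the mean of each gene over the 8 mice), water mice in blue and voglibose mice in orange. Water mouse 4 and voglibose mouse 2 are highest for the GBP and IRG genes (1.58 and 0.52) and for the T cell markers (0.77 and 0.73), and lowest for the distal ileum genes (-2.17 and -2.24).

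Genes outside the 10 were ranked by how closely their 8 values ran with the mean of the 8 GTPase genes. Of 19497 genes 106 (0.544%) had a Pearson r above 0.9, which is a description of 8 mice with no p, since the top of a ranking was taken. First stood Gm12250, with an r of 0.99 and a Spearman rho of 0.98. It was followed by AW549877, by Rmdn3, a tether between mitochondria and endoplasmic reticulum, by Ube2l6, the conjugating enzyme for ISG15, and by the zinc transporter gene Slc30a4, each with an r of 0.98. The olfactory receptor gene Olfr591, Spring1, a regulator of SREBP processing, and the interferon-induced gene Ifi35 had an r of 0.97. Olfr591 and Spring1 were dim, with water means of 3.96 and 4.54 near the arrays' lower quartile of 4.05 to 4.18. The fit without dim probe sets leaves both out. With the 2 mice farthest from the median of the GTPase mean left out (water 4 and voglibose 2), these 8 genes had an r of 0.90 to 0.96 over 6 mice. Their differences ran from -0.23 (Spring1) to -1.50 (Gm12250).

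**Figure D5:**
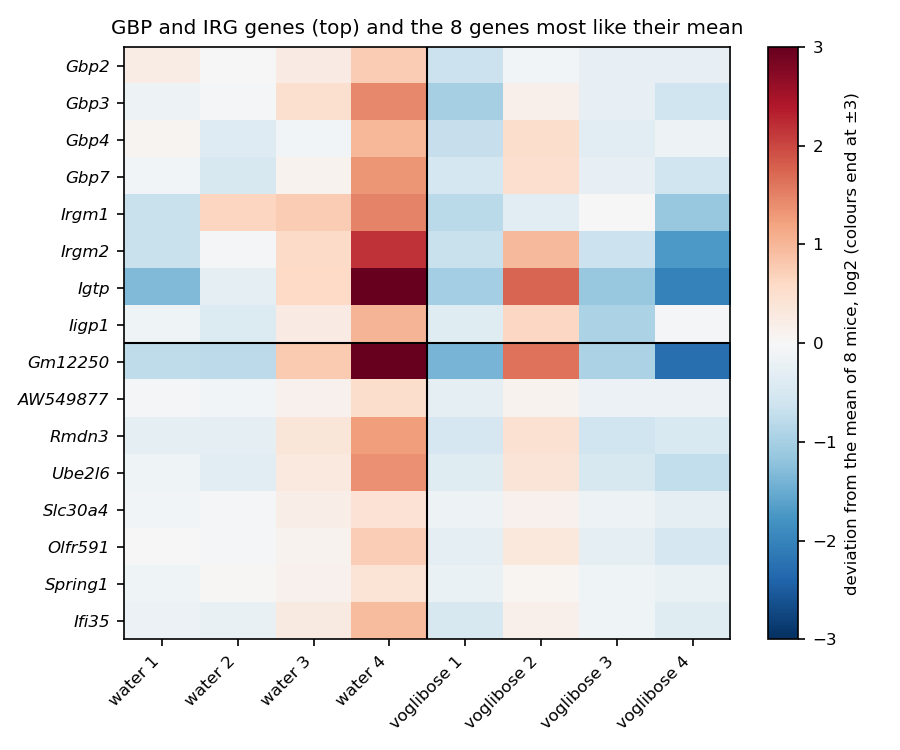
Deviation of each gene from its mean over the 8 mice (colour, log2, with colours ending at ±3) for the 8 GBP and IRG genes, above the line, and the 8 genes most like their mean, below it; columns are mice. The column of water mouse 4 is red throughout, and Igtp and Gm12250 have the strongest colours, with ranges of 5.48 and 6.01.

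The ISRE letters were also set against the response of all genes. Of 15691 genes with a probe set and a promoter, 544 held the ISRE core in the 250 upstream bases, and 44 of them (8.09%) had an unadjusted p under 0.05 with a lower signal in voglibose mice, against 4.64% of all genes with a promoter. The 544 genes include the measured GTPase genes with these letters, and the 44 include Gbp2, Gbp3 and Irgm1. The share is thus no separate check on them. The median difference of the 544 genes was -0.024 against -0.01. For the GAS letters the share was 4.19% of 1217 genes. Genes with the ISRE letters went both ways, 295 lower and 249 higher in voglibose mice.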

How the data were processed

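Total RNA (250 ng) of an ileal segment about 4 cm long was hybridised to 1 Affymetrix array for each mouse. The authors deposited 1 log2 signal for each probe set. RMA, which corrects background, normalizes by quantiles and summarizes probes, and the Transcriptome Analysis Console are named in the submitters' processing notes. The log2 scale was read from the values, 2.09 to 19.55, and no version or genome build is given in the sources used here. Quantile normalization hides changes in total RNA, and dim or saturated probe sets understate differences. The number of arrays limits the precision.

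Groups came from the sample labels, which name no batch. Nothing in the labels beyond 4 mice per group describes the replicates, so p-values measure the spread between these mice. All 22206 probe sets entered limma 3.58.1 (R 4.3.3; lmFit and eBayes, no trend), 2-sided, with Benjamini-Hochberg adjustment and a threshold of 0.05, and 0 passed, with 1671 at an unadjusted p under 0.05. The fit was also run on simulated arrays with independent values, unlike the genes here, which run together, and that outcome is not given here. Of these probe sets, 19572 have 1 gene symbol in the platform annotation, 0 several and 2634 none, and all 19572 matched RefSeq (GRCm38.p6) through gene identifiers. For genes with several probe sets, the one with the highest mean was used.

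The members and lists were chosen with earlier results of these data known. Named are the 10 listed members where measured, up to 4 genes with the smallest p per pathway list and up to 2 per marker list, a panel (Ifng, Ifngr1, Ifngr2, Irf1, Cxcl9, Cxcl10 and Ifit3 of it had a probe set), and the 8 genes of highest Pearson r with the members' mean. Alternatives were further normalization, filtering, other variance models, a replicate block, mice left out and distal ileum markers as a covariate. Figures were drawn with matplotlib 3.10.9, and promoters were aligned with Biopython 1.88.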

Additional observations from a re-analysis of the deposited data

Results flagged for a closer look

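Of 136 sets of 4 mice checked (members, other named genes and list means in each group), 7 held a mouse far from the other 3. Chance gives about 1 in 20 for a single set. Many of these sets run together or share genes, so the number of flags is no test against chance. No GBP or IRG gene was among them. Irf1 stood at 14.77 in water mouse 4 (others 13.32 to 13.53), and Rmdn3 at 8.87 in voglibose mouse 2 (others 7.82 to 7.96), the mice with the highest GTPase means of their groups. In voglibose mouse 3, Il1b stood at 7.90 (others 6.78 to 6.89), Ifnl2 at 5.13 (others 5.54 to 5.57) and the autophagy list mean at -0.03 (others -0.10). Mgam, a brush border enzyme, stood at 18.01 in water mouse 2 (others 18.30 to 18.33) and at 18.58 in voglibose mouse 1 (others 18.38 to 18.40). The groups did not overlap for Mgam, with the higher signal in voglibose mice.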

How the results depend on the processing

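All 8 genes kept a lower mean in voglibose mice in 17 other fits, and none of these 136 values had an adjusted p under 0.05 (lowest 0.494, limma). Fits that changed only the variance model, the filter, the block or the averaging of probe sets leave these differences unchanged by construction. In such fits no sign of the 8 genes could turn. The count of 3 genes at an unadjusted p under 0.05 became 1 with unmoderated variances and 8 with the distal ileum covariate. Leaving out 1 mouse gave 1 to 5: 1 without water mouse 4, 1 without voglibose mouse 4 and 5 without voglibose mouse 2. The count of genes whose groups do not overlap ranged from 1 to 2 without 1 mouse. It came to 2 with both water mouse 4 and voglibose mouse 2 left out, against 10.5% of the array. The cause of these shifts was not tested. The share of the array without 1 mouse is not given here, so the counts without 1 mouse have no background beside them. With the replicate number as a block, the count stayed 3 (adjusted p = 0.724 for Gbp2) and that of the array moved from 1671 to 1529. Same-numbered mice had deviations that correlated from -0.324 to 0.015, against -0.282 to 0.396 for other mice. By this measure same-numbered mice were no more alike than others, which does not exclude a pairing. Signs turned in 5 of 895 values of named genes: Ifngr2 was 0.0069 after further quantile normalization, 0.06 without water mouse 4 and voglibose mouse 2 and 0.01 without voglibose mouse 2, Cd8a was -0.24 without water mouse 2, and Irf1 was 0.14 without water mouse 4. Without 1 mouse each, Ifngr2 ranged from -0.13 to 0.01, Cd8a from -0.24 to 0.95 and Irf1 from -0.45 to 0.14. Signal near the array floor limits Ifng, whose difference would be understated.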

Other observations

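Some genes of innate defence ran against the GTPases from mouse to mouse. Nos2, which makes nitric oxide and stands in the interferon gamma list, had 8.53, 9.81, 8.69 and 5.12 in the water group and 9.70, 7.36, 9.43 and 9.28 in voglibose mice, lowest in water mouse 4 and voglibose mouse 2. Naip6, a receptor for bacterial flagellin, had 14.20, 14.37, 14.14 and 13.04 in the water group and 14.55, 13.68, 14.55 and 14.58 in voglibose mice, with the same 2 mice lowest. Naip5, its relative, had its lowest values there too (14.34 and 14.56, others 15.16 to 15.44). The group differences were 0.91 ± 0.85, 0.40 ± 0.30 and 0.19 ± 0.26 (SE), all well within the spread between mice. These genes were named after their values were seen.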
